A study of Mus musculus with 10 samples.

Results

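Voltage-gated ion channel genes are described here across the DNA methylation of whole mouse embryos. The members are the autosomal protein-coding genes whose RefSeq symbol starts with Kcn, Cacn, or Scn followed by a digit, without Kcnq1, which gives 130 of 20661 autosomal protein-coding genes. The rule goes by symbol and used no measured value. It therefore also takes in accessory subunits that form no pore. Relatives not gated by voltage, or not by voltage alone, are included too: inward rectifiers, tandem-pore channels and calcium- or sodium-activated potassium channels. The study measured methylation by reduced representation bisulfite sequencing, which reads cytosines in CpG-rich restriction fragments. Its samples are 5 embryo samples of an arsenic group and 5 of a control group, all taken at embryonic day 7.5. The sources used here do not give dose, route, the exposed parent or stage, mouse strain, sex or the number of embryos per sample, and nothing says whether samples of a group came from separate litters. The extraction protocol also describes sperm DNA, although each sample is labelled as embryos.

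The deposited counts come in 10 sets of columns that carry the numbers 1 to 10 and no group, and the titles number each group from 1 to 5. No set could be tied to a sample, so arsenic and control embryos were not compared, and each set is called a library column below. Levels are shares of calls that were methylated, in percent, summed over the positions of a region and over the 10 columns unless a column is named. With the 2 groups mixed in the columns, the range over columns holds any difference between them. No test was made, and differences are set beside that range, which does not hold the spread between genes. Intervals are 95% Wilson intervals, cover counting error only, and are too narrow, because calls made by the same read were taken as independent. Coverage was 10 reads or more at each position in all columns, and its sum ranged from 73509873 in column 3 to 127743904 in column 1.

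Voltage-gated channels open when the membrane potential shifts and let potassium, sodium or calcium ions cross the membrane. Sodium and calcium currents drive action potentials, contraction and secretion in nerve, heart, muscle and gland cells, and potassium currents end them and set the resting potential. At gastrulation these tissues have not matured, so the genes are mostly known for what they do later. In mammals, CpG-rich promoters are mostly unmethylated in any tissue, gene bodies and CpG-poor sequence are mostly methylated, and the embryo gains methylation between implantation and gastrulation.

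The sequences behind the range of promoter levels are short stretches before a start site. The 250 bases upstream of the start are printed for 7 starts, 5′ to 3′ along the gene, from RefSeq promoter sequences on the build mm10 (GRCm38). Capitals mark the CpGs measured on at least 1 strand in all 10 columns. The first set has 3 CpG-rich promoters with low levels. It holds Cacna1b, the pore of N-type calcium channels at nerve endings, Kcna3, a potassium channel of lymphocytes, and a start inside Cacna1c, the pore of the L-type calcium channel of heart muscle.
Cacna1b: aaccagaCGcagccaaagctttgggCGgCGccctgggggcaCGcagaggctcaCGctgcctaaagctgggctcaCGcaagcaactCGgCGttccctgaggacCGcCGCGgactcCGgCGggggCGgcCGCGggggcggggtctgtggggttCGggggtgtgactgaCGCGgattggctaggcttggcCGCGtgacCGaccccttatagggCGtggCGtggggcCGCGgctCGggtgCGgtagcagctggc
Kcna3: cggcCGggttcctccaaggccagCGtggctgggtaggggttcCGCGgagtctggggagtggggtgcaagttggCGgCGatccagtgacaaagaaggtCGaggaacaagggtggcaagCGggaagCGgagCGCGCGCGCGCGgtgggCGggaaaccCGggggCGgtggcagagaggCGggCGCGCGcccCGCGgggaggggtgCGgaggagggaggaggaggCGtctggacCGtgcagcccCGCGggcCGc
Cacna1c, internal start: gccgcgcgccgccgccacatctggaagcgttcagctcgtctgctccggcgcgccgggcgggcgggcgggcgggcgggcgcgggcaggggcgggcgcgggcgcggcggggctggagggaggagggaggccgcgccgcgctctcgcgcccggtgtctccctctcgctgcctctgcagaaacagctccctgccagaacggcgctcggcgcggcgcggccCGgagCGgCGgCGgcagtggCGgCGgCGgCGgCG
The Cacna1b stretch lies at chr2:24763153-24763402 on the minus strand, holds 29 CpGs of which 28 were measured, and had a level of 1.58%. The Kcna3 stretch, chr3:107035912-107036161 on the plus strand, holds 31 CpGs of which 30 were measured, and had a level of 2.30%. The Cacna1c stretch, chr6:119108496-119108745 on the minus strand, holds 48 CpGs of which 9 were measured, and had a level of 1.37%. Each of the 3 stayed under 3.2% in each column, with the highest column at 3.18% for Cacna1b, 3.12% for Kcna3 and 2.42% for Cacna1c.

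The second set has an intermediate promoter and 3 CpG-poor ones with high levels. They belong to Kcnh5, a potassium channel of the ether-a-go-go family, Kcne4, a single-pass subunit that modulates potassium channels, Kcnk18, a tandem-pore channel of sensory neurons, and Kcnj13, an inward rectifier of transporting epithelia.
Kcnh5: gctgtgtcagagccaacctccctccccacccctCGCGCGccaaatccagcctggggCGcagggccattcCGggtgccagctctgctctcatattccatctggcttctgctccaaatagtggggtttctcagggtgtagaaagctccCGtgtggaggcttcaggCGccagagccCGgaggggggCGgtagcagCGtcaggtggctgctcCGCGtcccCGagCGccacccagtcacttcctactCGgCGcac
Kcne4: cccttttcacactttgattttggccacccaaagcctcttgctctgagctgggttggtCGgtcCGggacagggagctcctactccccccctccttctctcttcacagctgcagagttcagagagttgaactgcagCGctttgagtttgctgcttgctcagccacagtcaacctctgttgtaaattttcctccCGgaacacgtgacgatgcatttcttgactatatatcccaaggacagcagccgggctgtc
Kcnk18: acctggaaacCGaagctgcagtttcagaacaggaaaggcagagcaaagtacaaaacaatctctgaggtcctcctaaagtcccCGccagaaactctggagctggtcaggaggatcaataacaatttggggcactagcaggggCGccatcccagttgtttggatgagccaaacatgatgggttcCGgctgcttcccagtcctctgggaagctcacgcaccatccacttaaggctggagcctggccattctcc
Kcnj13: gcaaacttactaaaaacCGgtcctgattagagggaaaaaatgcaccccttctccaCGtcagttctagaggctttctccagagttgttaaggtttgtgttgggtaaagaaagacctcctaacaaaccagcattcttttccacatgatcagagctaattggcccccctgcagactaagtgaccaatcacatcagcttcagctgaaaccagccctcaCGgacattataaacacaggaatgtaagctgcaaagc
Kcnh5, at chr12:75177333-75177582 on the minus strand, had all 16 of its CpGs measured and a level of 15.3%, with single positions between 0.685% and 39.2%. Kcne4, at chr1:78816661-78816910 on the plus strand, holds 7 CpGs of which 4 were measured, and had 56.6%. Kcnk18, at chr19:59219398-59219647 on the plus strand, holds 5 CpGs of which 4 were measured, and had 45.7%. Kcnj13, at chr1:87394730-87394979 on the minus strand, holds only 3 CpGs, all measured, and had 65.8%. The lowest column of these CpG-poor stretches was 51.0% for Kcne4, 34.4% for Kcnk18 and 54.4% for Kcnj13, above the highest column of Kcnh5, 18.1%. The printed stretches were picked with their levels known, so the gaps between them only describe them.

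Channel promoters with a measured level had lower medians in the classes with more CpGs. RefSeq promoters of 300 bases, which reach 50 bases past the start, were matched for 97 of the 130 members and gave 133 starts. They held a median of 9 CpGs, against 14 in 20084 starts of all autosomal protein-coding genes. At most 10 CpGs were found in 55.6% of channel starts and 44.1% of all starts, and more than 20 in 28.6% and 34.8%. CG and CCGG read the same on both strands, and each CCGG contains a CG. CCGG, the cut site of the enzyme usual for this method, was present in 61.7% of channel starts and 63.5% of all starts. A level could be measured at 48 channel starts, 36.1%, and at 38.5% of all starts. Among the 48, the median was 21.9% with at most 10 CpGs, 5.39% with 11 to 20 and 2.17% with more than 20. These medians rest on 11, 13 and 24 starts. Over all starts the medians were 23.6%, 1.46% and 0.977%. With at most 10 CpGs, only 11 of 74 channel starts were measured, and 4 of them were under 20%. Of the measured positions in all promoter windows, 99.6% fell on a CpG of the sequence.

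Gene ends of channel genes were mostly lowly methylated, but less so than gene ends in general. Of the 2 ends of a gene, the better measured one was used, with 1000 bp on each side and at least 3 positions, which gave a level to 103 of the 130 members. That end was the 5′ end in 61 of them and the 3′ end in 14, and was not assigned in 28. The median end level was 9.03%, against 2.92% over 14232 autosomal protein-coding genes. In single columns the channel median ranged from 8.37% to 9.65% and the median of all ends from 2.84% to 3.24%, so the ranges did not overlap. The difference lay between 5.53 and 6.65 percentage points in each column. Over genes the spread was wider, with quartiles of 3.64% and 33.2% at channel ends and 1.16% and 18.6% at all ends, which overlap. Under 20% lay 66 channel ends, or 64.1%, and 75.6% of all ends. Between 20 and 80% lay 37, or 35.9%, and 23.1% of all ends. Above 80% lay none of the 103, and 1.29% of all ends. Nearest to the lower limit were Kcnmb2 at 19.3% and Kcne1 at 20.4%.

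The difference depended on the number of measured positions, of which channel ends had a median of 28 and all ends 34. With 30 or more positions, 50 channel ends had a median of 4.64% and 88.0% of them were under 20%, against 1.62% and 94.1% for all such ends. With 10 to 29 positions the medians were 9.68% over 28 channel ends and 6.70% over all. With 3 to 9 positions the order was turned, with 40.1% over 25 channel ends and 47.8% over all. Of the 103 windows, 14 reached into another protein-coding gene, among them those of Kcnab3, Kcnj13, Kcnk4, Cacna1h and Cacnb3, and those levels need not belong to the channel gene alone.

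**Figure D1:**
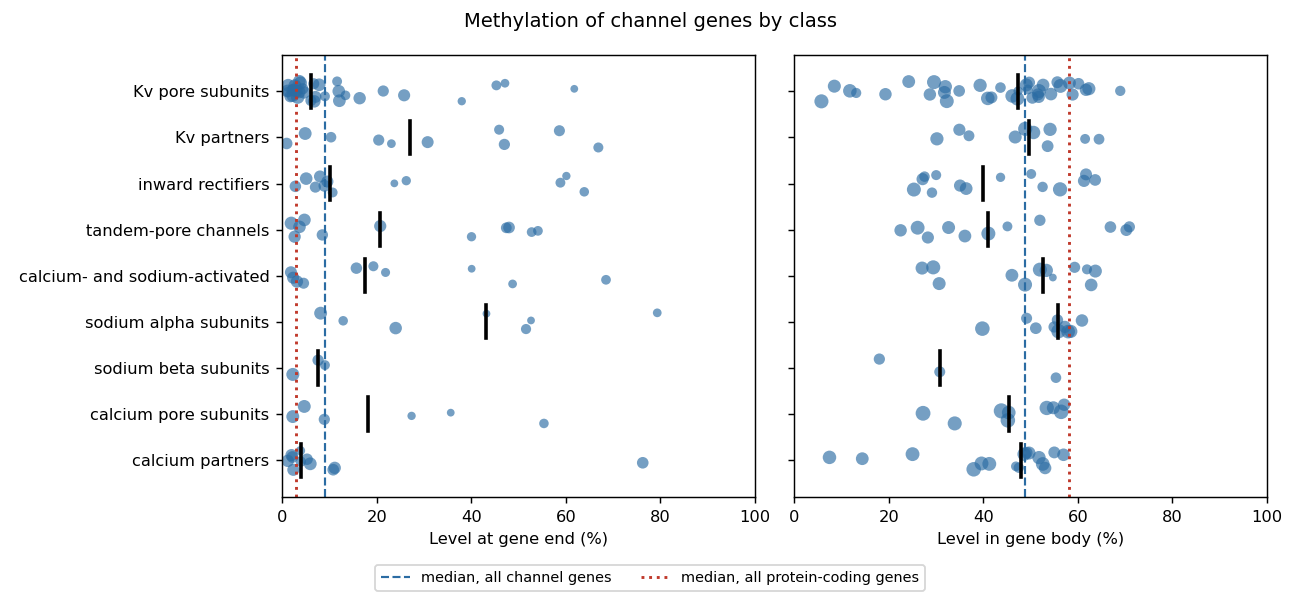
Methylation level in percent at the gene end (left) and in the gene body (right) for each member, 1 point per gene and 1 row per class, with point size growing with the number of measured positions. Black bars are class medians, the dashed line the median of all channel genes (9.03% at ends, 48.9% in bodies) and the dotted line that of all autosomal protein-coding genes (2.92% and 58.2%). Kv pore subunits and calcium partners crowd at low end levels, and sodium alpha subunits are spread out to 79.4%.

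The pore-forming subunits of voltage-gated potassium channels, of which 4 assemble into a channel, were among the least methylated classes. Their 33 measured ends had a median of 6.07%, and 27 were under 20%. Kcnq3, a subunit of the channels that carry the M-current, which damps neuronal firing, had an end level of 1.23% over 13 positions, with a median column of 1.32% and columns between 0 and 4.62%, and a body level of 58.9%. Kcna1, an axonal channel, had 4.33% at its end and only 11.8% in its body, measured over 158 positions. Kcnc4, a fast-inactivating channel, had 2.21% over 60 positions of its 5′ end and a low body of 8.48% over 103 positions, with columns between 7.25% and 10.7% in the body.

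Higher ends in this class were few. Kcng4, a silent subunit that conducts only together with other pore subunits, had 45.3% over 10 positions of its 5′ end, with columns between 37.9%, a median of 45.8% and 50.8%. Kcnd2, the A-type channel of dendrites, had 9.03% over 11 positions of its 5′ end, with a median column of 8.90% and a range from 4.20% to 19.8%. Kcnh2, which carries the rapid repolarising current of the heart, had 11.6% at its 3′ end and 1.13% over 9 positions of its 5′ end. Kcnv2, a silent subunit known from photoreceptors, had no measured end and the highest body of the class, 69.0% over 13 positions.

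Accessory subunits had a higher median end as a class than the pore subunits. No subunit was matched to the pore it binds. The 10 measured ends had a median of 26.9%, with class medians between 21.0% and 33.7% over the columns, against 4.73 to 6.27% for the pore subunits, and 3 were under 20%. These column ranges do not hold the spread between genes. Quartiles over genes were 12.8% and 46.7%, against 2.68% and 12.1% for the pore subunits. Of the 10 windows, 3 reached into another protein-coding gene, those of Kcnab2, Kcnab3 and Kcnip2. The lowest ends were those of beta subunits, cytoplasmic proteins that dock to the pore, with Kcnab3 at 0.940% and Kcnab2 at 4.86%. The highest were Kcne subunits. Kcne4, whose promoter is printed above, had 58.7% over 22 positions of its 5′ end (95% interval 57.5 to 59.9%), with a lowest column of 52.5%, a median of 58.2% and a highest of 63.5%. Kcne3, a subunit of epithelial potassium channels, had 66.9% at its 3′ end over 11 positions, with columns from 47.9% to 81.8% and a median of 70.3%, the widest range among channel ends of 10 or more positions. The Kcnip proteins bind calcium and regulate Kcnd channels. Kcnip1 had 47.0% over 25 positions of its 5′ end, with columns between 42.8% and 52.1%. Kcnip4 had 10.3% over 16 positions, with columns between 0.920% and 20.5%, a range of 19.6 percentage points that exceeds the level itself. With 5′ ends alone, 7 subunits had a median of 23.1%, against 6.07% for 19 pore subunits.

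Inward rectifiers, which hold the resting potential and respond to metabolism or G proteins, had a median end of 10.1% over 12 ends, of which 7 were under 20%. Kcnj2, the main rectifier of muscle and heart, had 2.78% over 31 positions (median column 2.64%, range 1.30 to 4.72%), and Kcnj12, a close relative, 5.07% over 70 positions. Kcnj11, the pore of the ATP-sensitive channel of pancreatic beta cells, had 26.2% over 7 positions, with columns between 22.2% and 30.2%. Kcnj14 had the highest end among those with 10 or more positions, 58.9% (median column 59.4%, range 50.2 to 64.9%), and a body of 27.2%. In Kcnj5, a G protein-gated channel of the atrium, both were low, with 10.7% at the end and 29.1% in the body.

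Tandem-pore channels carry leak currents at rest. Their 11 ends split into 5 under 20% and 6 above it, with a median of 20.7%. Of the 11, 4 were 5′ ends, 4 were 3′ ends and 3 were not assigned, so this median is not one of promoters. It was the value of Kcnk4 at its 3′ end, whose 5′ end had 7.39% over 45 positions. With 5′ ends alone, 6 genes had a median of 18.7%, and 3 of them were under 20%. Kcnk12 had 1.91% over 115 positions of its 5′ end and a body of 70.3%, and Kcnk6 had 2.63% and a body of 70.9%, the highest body of all members. At the other side, Kcnk18 had 48.0% over 35 positions of its 5′ end (95% interval 47.1 to 48.8%, median column 47.9%, range 45.7 to 52.2%). Kcnk16, a channel of pancreatic islets, had 47.4% at its 3′ end. Kcnk9, which is expressed from the maternal allele in mouse brain, had 8.49% over 28 positions, with a median column of 8.66% and a range from 5.44% to 11.1%, and 36.1% in its body. That end level was below 20% in each column, and parental alleles cannot be told apart in these counts. Kcnk2, a mechanosensitive channel, had no measured end and a body of 41.1%.

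Calcium- and sodium-activated potassium channels and their partners had a median end of 17.5% over 10 ends, of which 6 were under 20%. Of the 10, 8 were 5′ ends, with a median of 10.1%, and 2 were not assigned. Kcnma1, the pore of the large-conductance channel, had 2.31% at its 5′ end (median column 2.28%, range 1.34 to 2.87%), and its beta subunits Kcnmb4 and Kcnmb2 had 3.11% and 19.3%. Among the small-conductance channels, Kcnn1 had 1.85% over 46 positions and Kcnn3 15.7% over 30, each at its 5′ end. Kcnn2 had 68.5% over 9 positions of an end that was not assigned (median column 66.8%, range 61.5 to 77.4%) and a body of 29.4%. Kcnn4, the intermediate-conductance channel of blood cells and epithelia, had 21.9% over 6 positions. Kcnmb1 lies within Kcnip1 on chromosome 11, so the positions of its body count in both genes.

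Sodium channel alpha subunits, which form the pore that starts the action potential, had the highest class median, 43.2%, but over 7 ends only. Of these, 4 were 3′ ends and 2 were 5′ ends, so this median is not one of promoters. Scn4a, the channel of skeletal muscle, had 51.6% over 12 positions of its 5′ end, with a median column of 50.5% and a range from 46.9% to 58.6%. Scn8a, a channel of axon initial segments, had 8.13% over 90 positions at the end used, its 3′ end. Scn10a, a channel of pain-sensing neurons, had the highest end of all members, 79.4%, over 5 positions of its 3′ end, with columns between 75.5% and 85.8%. Scn1a, the channel of inhibitory neurons, had no measured end and a body of 57.3%. The beta subunits, which are adhesion-like proteins beside the pore, had 3 ends, all under 20%, among them Scn3b at 7.59% and Scn4b at 9.04%.

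Pore subunits of calcium channels had a median end of 18.1% over 6 ends, of which 3 were under 20%. Of the 6, 3 were 5′ ends and 3 were not assigned, so this median is not one of promoters. With 5′ ends alone, 3 genes had a median of 4.67%, and 2 of them were under 20%. Cacna1b had 2.23% over 90 positions and Cacna1i, a low-voltage T-type channel, 4.67% over 92, each at the 5′ end. Cacna1g, another T-type channel, had 8.90% over 25 positions, with columns between 5.77% and 11.2%. Cacna1h, the third T-type channel, had 55.4% over 8 positions, and Cacna1a, the P/Q-type channel of synapses, 35.7% over only 3. Cacna1c and Cacna1s, the L-type channels of heart and skeletal muscle, had no measured end and bodies of 43.8% and 57.1%.

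Calcium channel partners had the lowest class median, 3.93% over 11 ends, with 10 under 20%. Cacna2d1, the subunit that binds gabapentin, had 1.17% over 61 positions (median column 1.27%, range 0.473 to 1.90%). Cacnb1 and Cacnb2, cytoplasmic subunits that carry the pore to the membrane, had 1.96% and 2.35%. Cacng2, a transmembrane protein known for its role with glutamate receptors, had 11.1% and its relative Cacng4 2.16%. Cacnb3 was the exception, with 76.3% over 33 positions of its 3′ end (95% interval 75.4 to 77.1%, median column 76.7%, range 72.3 to 80%), 38.8% over 28 positions of its 5′ end and 25.0% in its body. Each of these differences of Cacnb3 exceeded the range over the columns, which was 33.1 to 44.8% at the 5′ end and 22.9 to 26.3% in the body.

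**Figure D2:**
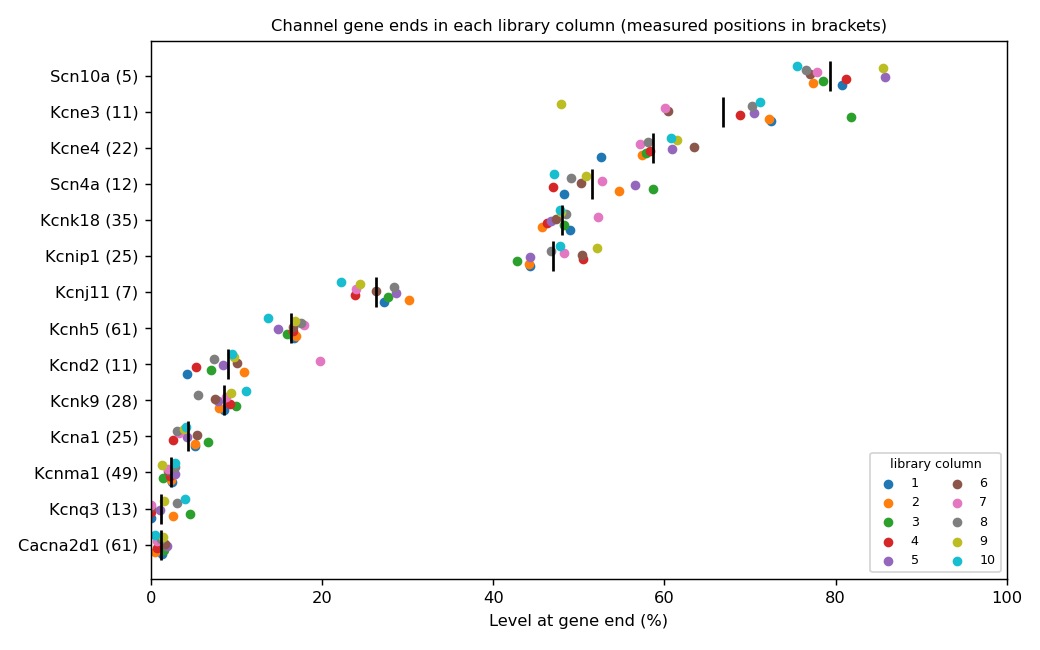
End level in percent (horizontal axis) of named channel genes in each of the 10 library columns, 1 row per gene, with points for columns and a bar for the level over the summed calls. Cacna2d1 stays under 2% in each column, Kcne4 and Kcnk18 stay between 45.7% and 63.5%, and Kcne3 is spread over 47.9 to 81.8%.

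Where strand was known, the ends of a channel gene differed from each other. Measured 3′ ends numbered 29 with a median of 51.2%, and 4 of them were under 20%. Measured 5′ ends numbered 66 with a median of 7.69%, and 49 of them, 74.2%, were under 20%. Over all genes the medians were 59.9% at 3′ ends and 2.17% at 5′ ends, with 82.8% of 5′ ends under 20%. In the 20 channel genes with both ends measured, the 3′ end was higher in 20 of 20, by a median of 33.2 percentage points. In all genes with both, it was higher in 82.7%, by a median of 48.5 points. The smallest gaps were found in Kcnk12, with 3.71% at the 3′ end and 1.91% at the 5′ end, and in Cacng7, another relative of Cacng2, with 5.91% and 3.93%.

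Bodies of channel genes were less methylated than gene bodies in general. A body is the part of a gene more than 1000 bp inside both ends, and 121 members had at least 3 measured positions there, 96 of them with a measured end as well. Kcne2 and Kcnrg had neither. The median body level was 48.9%, against 58.2% over 13907 genes. In single columns it ranged from 46.4% to 51.0% for channel genes and from 56.7% to 60.8% for all, so the ranges did not overlap. Quartiles over genes did overlap, at 34.0% and 55.4% for channel bodies and 44.4% and 71.0% for all. Under 20% lay 8 channel bodies, or 6.61%, and 9.12% of all bodies, and between 20 and 80% lay the other 113, where 81.9% of all bodies lay. Above 80% lay none of the 121, and 8.98% of all bodies. The lower median held in each class of gene length, with 40.5% in channel genes and 55.9% in all genes under 20 kb, 49.4% and 60.6% at 20 to 100 kb, and 51.3% and 56.9% in longer genes.

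Among the 8 low bodies were those of Cacng8, Kcnc4, Kcna1, Cacng7 and Scn4b. Cacng8, a neighbour and relative of Cacng7 on chromosome 7, had 7.45% over 149 positions, with a median column of 7.48% and a range from 5.57% to 9.85%. Scn4b crossed the limit, with columns between 11.1% and 21.9% over 25 positions. The other low bodies named above, of Kcnc4 and Kcna1, stayed under 15% in each column. By class, body medians ran from 30.8% in the 3 sodium beta subunits to 55.8% in the 10 sodium alpha subunits, and no class reached the 58.2% of all genes.

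In 81 of 96 channel genes with both values the body level was above the end level, or 84.4%, against 86.9% of all genes. The 15 others included Kcng4, Kcne3, Kcnip3, Kcnj14, Kcnk16, Kcnn2, Cacna1a, Cacna1h and Cacnb3. Of these, Kcne3, Kcnip3, Kcnk16 and Cacnb3 had been measured at the 3′ end. For Kcnj14, Kcnn2, Cacna1a and Cacna1h the end used was not assigned. Where the end used was a known 5′ end with 10 or more positions, Kcng4 was the case, with 39.3% in its body and 45.3% at its end. Its column ranges of 35.4 to 43.8% and 37.9 to 50.8% overlapped. The 5′ end of Cacnb3, which was not the end used, also lay above its body, with 38.8% over 28 positions and 25.0%. Its column ranges of 33.1 to 44.8% and 22.9 to 26.3% did not overlap.

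**Figure D3:**
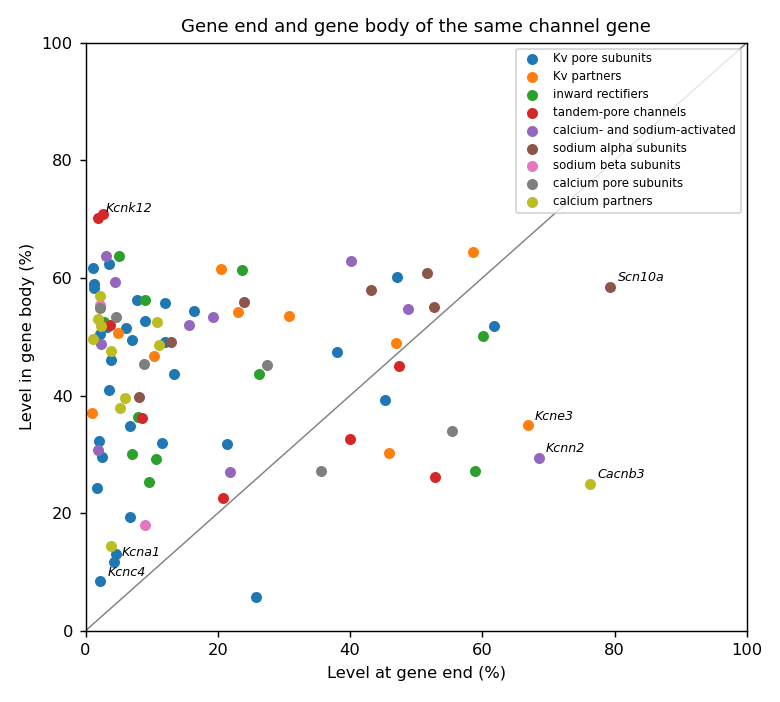
Body level (vertical axis) against end level (horizontal axis), both in percent, for the 96 channel genes with both values, 1 point per gene, coloured by class, with the diagonal of equal levels. Of the points, 81 lie above the diagonal. Cacnb3 (25.0% in the body, 76.3% at the end) and Kcnn2 (29.4% and 68.5%) lie well below it. The end used was the 3′ end in Cacnb3 and was not assigned in Kcnn2.

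Away from the 5′ end, levels in channel genes climbed more slowly than in all genes. Over summed calls, the first 500 bp of channel genes had a level of 7.25% (range over columns 6.80 to 8.35%), and those of all genes 3.77%. From 1 to 2 kb the levels were 13.5% and 16.0%, and from 2 to 5 kb 25.4% and 36.3%. At 5 to 10 kb channel genes had 32.5%, with columns between 29.9% and 35.1%, and all genes 50.5%, with columns between 48.8% and 52.7%. The channel value at 5 to 10 kb rests in part on Kcnj4, an inward rectifier, and Cacnb3, without which it was 44.8%. The median over genes in that interval was 52.6% for channel genes and 62.7% for all. Past 100 kb the levels were 52.9% and 58.9%.

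**Figure D4:**
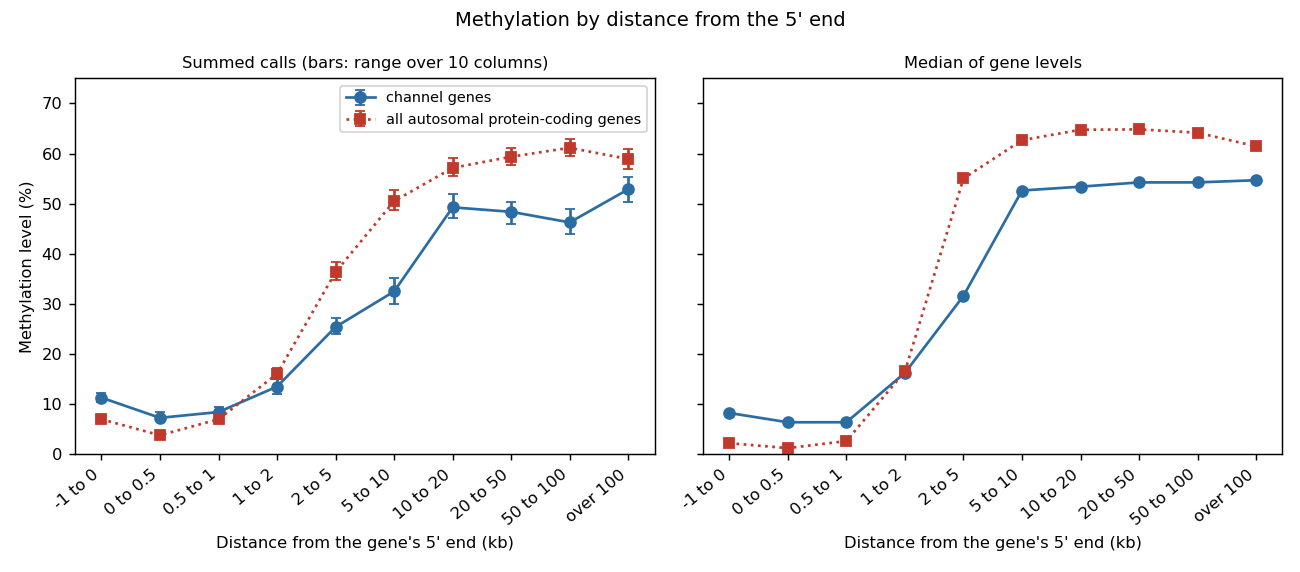
Level in percent (vertical axis) by distance from the 5′ end in kb (horizontal axis, in unequal steps) for channel genes and for all autosomal protein-coding genes, over summed calls (left, with bars for the range over the 10 library columns) and as the median of gene levels (right). On the left, channel genes lie above all genes in the first 500 bp (7.25% and 3.77%) and below them from 1 kb on, with 32.5% and 50.5% at 5 to 10 kb.

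Densely measured sequence made up more of the channel bodies, and levels were lower at each density. Positions with more than 15 measured positions within 100 bp made up 23.1% of channel body positions and 18.4% of those of all genes, and had levels of 19.6% and 25.0%. With 6 to 15 positions the levels were 46.8% in channel bodies and 55.7% in all, and with at most 5 they were 52.8% and 60.9%. The column ranges of channel genes and all genes did not overlap at any of the 3 densities.

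Part of the low sequence inside channel genes lay at internal start sites. RefSeq lists 41 starts more than 2000 bp inside a channel gene, of which 23 in 18 genes had 3 or more positions within 1000 bp. Their median level was 10.6%, and 16 of them, or 69.6%, were under 20%, against 5.87% and 65.8% over 1736 internal starts of all genes. Below the level of their own gene body lay 21, or 91.3%, against 80.9% over all. The start inside Cacna1c, 88.9 kb into the gene, had 1.44% over 129 positions with columns between 0.904% and 1.82%, where the whole body had 43.8%. Starts inside Kcnj4 and Cacnb3 had 1.10% and 2.00%, in bodies of 25.3% and 25.0%, and that of Kcnip3 had 2.48% in a body of 30.2%. Kcnk2 has 3 internal starts close together that share most of their positions, the lowest at 5.88% in a body of 41.1%. At the other side were starts inside Kcnh2, with 69.6% over 5 positions, and Scn8a, with 61.5% over 26, which exceeded their bodies at 32.0% and 39.8%.

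Runs of successive measured positions under 20% had much the same length in channel genes and in all genes. A run ended at a position of 20% or more or at a gap over 2000 bp, so it can span unmeasured sequence. That of Kcnj9, 2131 bp long, held only 7 positions. The longest run of a gene and its flanks had a median of 414.5 bp in 128 channel genes and 409 bp in all genes, and exceeded 2000 bp in 6, or 4.69%, and in 3.72%. Runs were picked for their low levels, so their levels only describe them. Kcnn1 had the longest, 2894 bp with 76 positions from its 5′ end inwards. The run of Kcnn2 was 2629 bp long with 155 positions at 2.28% and lay about 290 kb from the lower end of the gene. Kcnk13, a tandem-pore channel of microglia, had 2313 bp and Cacnb3 2035 bp. The run at the Cacna1c start was 1120 bp long with 135 positions at 1.54%.

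**Figure D5:**
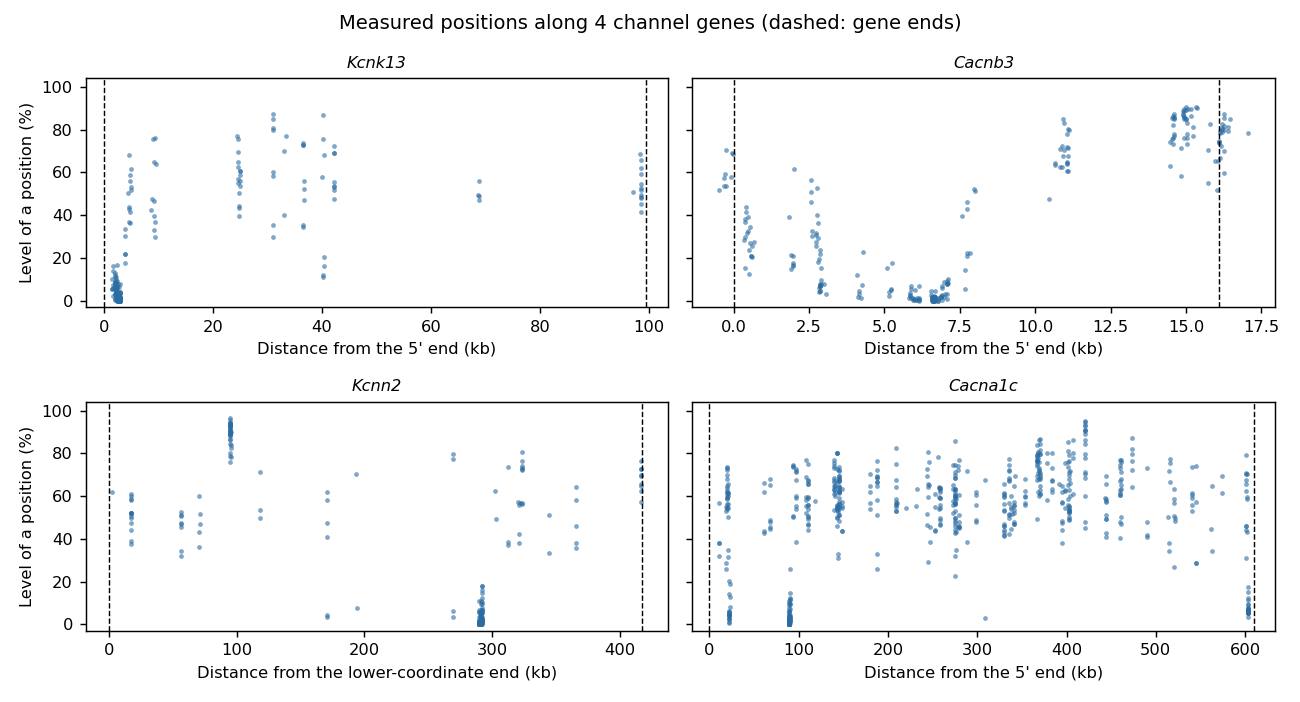
Level in percent (vertical axis) of each measured position, over the summed calls, along Kcnk13, Cacnb3, Kcnn2 and Cacna1c, by distance in kb (horizontal axis) from the 5′ end where strand was known and otherwise from the lower end of the gene. Each of the 4 genes has a dense low run inside, that of Cacna1c 88.9 kb from its 5′ end.

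The library columns shifted channel bodies together. The body level was highest in column 9 for 30 of the 121 members, in column 1 for 27 and in column 10 for 18, and lowest in column 6 for 32, in column 8 for 27 and in column 7 for 19. Over all gene bodies the same columns led, with 22.1% highest in column 9, 20.1% in column 1 and 16.2% in column 10, and 18.1% lowest in column 7, 17.0% in column 6 and 16.5% in column 8. Whether this follows the groups cannot be told, since no column has a group. The range over columns had a median of 8.64 percentage points in channel bodies and 9.45 in all bodies. At ends it was 5.81 points in 103 channel genes and 3.41 in all, and 3.01 and 1.98 points at ends with 30 or more positions.

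Other channel families had end medians near that of the members. The body median of ligand-gated channels was also near that of the members, and that of other cation channels was higher. Of 61 genes of ligand-gated channels, which open on binding a transmitter, 44 ends had a median of 10.6% and 27 were under 20%, and 55 bodies had a median of 51.7%. Of 57 genes of other cation channels, among them Trp, Hcn and ryanodine receptor genes, 37 ends had a median of 9.83% and 24 were under 20%, and 56 bodies had a median of 58.0%. In single columns the end medians ranged from 8.37% to 9.65% for the members, from 9.17% to 12.7% for ligand-gated channels and from 8.63% to 11.2% for other cation channels, and these ranges overlap. The body medians ranged from 46.4% to 51.0% for the members, from 49.5% to 54.9% for ligand-gated channels and from 55.0% to 59.7% for other cation channels, so the members and the other cation channels did not overlap. Dissected embryos can bring other tissues with them, and ends of their marker genes were examined too. Under 20% lay 5 of 5 measured trophoblast markers, 6 of 6 markers of maternal decidua and 2 of 4 of visceral endoderm. Of all gene ends, 75.6% lay under 20%, and these lists are too short to be set apart from that share. What such tissues add to the channel gene levels was not tested.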

How the data were processed

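Embryo DNA was made into reduced representation bisulfite libraries, per the labels' protocols. Trim Galore, Bismark, methylKit and the build mm10 are named, without versions, per the submitters' processing notes. The authors deposited 1 table of raw counts, with coverage, methylated and unmethylated calls per cytosine position, per the file headers. Its 30 count columns carry numbers only and were tied to no sample, so the planned comparison of arsenic with control embryos was not run. Of 2137826 rows, 2 that repeated a position were left out. In the rest the calls added up to the coverage, which was at least 10 in each column, as tested on the table.

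Levels are methylated calls over coverage, without normalization, in percent. Gene positions came from a RefSeq table of GRCm38. Strand and starts came from RefSeq promoter sequences, which were matched for 97 of 130 members. A channel end had between 627 and 58758 calls over all columns, with a median of 10116, and summed channel end calls ranged from 105380 to 202069 per column. The members and gene lists were chosen with earlier results of these data known. Genes were named by class from the highest and lowest levels among those with 10 or more positions, from the widest ranges over columns and from well-known members, 56 in all, of which some are not reported here. The printed promoters, internal starts, low runs, low bodies and genes at limits were added after values were seen. From the comparison lists, 3 symbols that name no channel were left out after they were seen. Scripts were checked on simulated counts. Alternatives covered the coverage minimum, the most covered positions, window width, number of positions, the end used, weighting, overlap with other genes and each column. Python 3.11.15, numpy 2.4.6, scipy 1.17.1, pandas 2.3.3 and matplotlib 3.10.9 were used.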

Additional observations from a re-analysis of the deposited data

Results flagged for a closer look

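For 97 values, the levels of named genes and 3 summary values, the highest or lowest column was set against the others by Dixon's ratio, and 6, or 6.19%, lay apart. Chance gives about 1 in 20 for values not picked by their columns. Some of these genes had been named for a wide range over columns, Kcnmb2 among them, so the share cannot be set against chance. At gene ends, the column that lay apart was high in each case. It was column 7 for Kcnd2 at 19.8%, where the next column had 10.9%, and for Kcnk18 at 52.2%, column 4 for Kcnk12 at 2.69%, column 3 for Kcnmb2 at 30.04% and column 5 for Kcnn1 at 3.95%. In gene bodies, Scn8a was low in column 6 at 34.8%, where the next column had 38.7%. The group of these columns is not known.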

How the results depend on the processing

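Of 114 alternative values, 97 stayed close to the reported one and 17 moved. Close meant within the standard deviation over the columns for levels, and within a fixed ratio for counts, whatever the number of genes measured. A large part of the 114 left out each column in turn, kept the calls of all the others and could hardly move, so the tally says little about robustness. The channel end median of 9.03% became 8.13% with at least 20 reads, 6.67% in 500 bp windows, 14.7% in 2000 bp windows, 8.06% with 5 or more positions, 6.73% with 10 or more, 7.69% at 5′ ends alone and 48.8% at the other end. Ends of 20 to 80%, 37 of 103 as reported, numbered 24 of 81 with windows of 500 bp, 16 of 78 with 10 or more positions and 17 of 66 at 5′ ends alone. Fewer ends were thus measured in these settings. Under 20% lay 70.4%, 79.5% and 74.2% of channel ends in them, and 81.2%, 83.6% and 82.8% of all ends. At the other end, 6 of 31 ends were under 20%, or 19.4%, against 23.1% of all, and 12 of 28 bodies lay above the end level. The body median of 48.9% became 45.0% with windows of 500 bp and 51.5% with 2000 bp. In 8 of 9 alternatives the end median was higher in channel genes than in all genes, the exception being the other end, with 48.8% and 57.6%, and the body median was lower in channel genes in 7 of 7 alternatives run on the bodies of both. The level at 5 to 10 kb, whose alternatives were chosen after seeing the data, was 44.8% without Kcnj4 and Cacnb3 and 52.6% as a median over genes. Leaving out each column in turn gave 8.55 to 9.41% for the end median, 48.6 to 49.3% for the body median and 32.3 to 32.8% at 5 to 10 kb, and left the counts of 66, 37 and 81 as they were. Beyond the change of genes or positions in each setting, the cause was not tested. No paired analysis was possible because the columns carry no replicate number that can be tied to a sample, and the planned tests of arsenic against control and their alternatives were not run for the same reason. Ends with few measured positions had few calls behind them.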
